A study of Mus musculus with 4 samples.

Results

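The 9 genes described here encode B cell and plasma cell proteins other than immunoglobulins. They were chosen by name from 49315 genes in the count table, with earlier results of these data known. They comprised 4 B cell genes (*Ms4a1*, *Cd79a*, *Cd79b* and *Pax5*) and 5 plasma cell genes (*Mzb1*, *Xbp1*, *Prdm1*, *Sdc1* and *Tnfrsf17*). All 9 had reads in every library, and 8 reached a CPM of 1 (counts scaled to library size) in at least 1 library and were compared. *Tnfrsf17* did not.

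Hermansky-Pudlak syndrome type 1 is caused by loss of *HPS1*, which encodes a protein needed to form lysosome-related organelles, and patients can develop lung fibrosis. RNA was sequenced from cells labelled as group 2 innate lymphoid cells (ILC2s), sorted from the lungs of mice and cultured with IL-2. WT and *Hps1*-/- mice, both on the C57BL/6 background, were given PBS or bleomycin, which gave the WT groups PBS-WT and BLEO-WT and the *Hps1*-/- groups PBS-HPS1 and BLEO-HPS1, each a single library. The gate kept cells with Thy1.2, ICOS and the IL-33 receptor T1/ST2 and dropped cells with lineage markers, among them CD3, CD11b and the B cell form of CD45, B220. The methods describe bleomycin by intraperitoneal and by intratracheal routes and do not say which was used for these libraries, so their dose and the age of the mice are not known here. The number of mice behind a library is not given in the sources used here. With 1 library per group the spread between mice is unknown, no condition could be tested and no p is given. A gene or list is described below as past the fold when CPM differed at least 2-fold (log2 ratio of 1 or more in size). All intervals are 95% intervals that cover counting error only. They are exact, except that intervals of a difference between bleomycin ratios are normal approximations.

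B cells carry an antibody at their surface that signals through the paired chains CD79A and CD79B, and the transcription factor PAX5 keeps them in the B cell state. A B cell that becomes a plasma cell turns on *Prdm1*, which encodes BLIMP-1 and silences *Pax5*, and *Xbp1*, which enlarges the endoplasmic reticulum for antibody secretion. Syndecan-1 (*Sdc1*) and BCMA (*Tnfrsf17*) mark the plasma cell surface, and MZB1 helps to assemble antibodies in the endoplasmic reticulum. Several of these genes are also used elsewhere: XBP1 and BLIMP-1 act in macrophages and T cells, syndecan-1 in epithelium, and MZB1 in plasmacytoid dendritic cells.

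The libraries held 72513619 to 87638154 reads. They were made from 22405 cells in PBS-WT and 84166 in BLEO-WT, and 38873 in PBS-HPS1 and 128647 in BLEO-HPS1. Cell input thus differed along with the groups, and its part in the ratios cannot be told apart from theirs. *Hps1* had fewer reads in both *Hps1*-/- libraries, with log2 ratios to the WT library of -1.20 under PBS and -1.18 under bleomycin. The 13 ILC2 markers read, 12 of them compared, together made up 696.2 to 1049.4 CPM. Of this *Arg1*, which macrophages express too, gave 387 CPM in BLEO-WT and 257 in BLEO-HPS1, and *Il5* and *Il13*, the type 2 cytokines of these cells, did not exceed 1.43 CPM. Markers of cells that the gate should drop were also read: 12 macrophage genes summed to 8332.4 CPM in PBS-HPS1 and 22057.5 in BLEO-WT, the lowest and highest of the libraries, and 12 T cell genes to 973.9 CPM in PBS-HPS1 and 2114.8 in BLEO-HPS1. The 4 B cell members together made up 71.2 CPM in PBS-WT and 79.5 in BLEO-WT, and 83.8 in PBS-HPS1 and 237.8 in BLEO-HPS1. Reads of genes of cells outside the gate leave the label ILC2 in doubt for the RNA as a whole. The paper reports a high purity for the sort, and sums of CPM over unlike lists do not measure shares of cells. In such bulk RNA, fewer cells of a type and less RNA per cell cannot be told apart.

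BLEO-HPS1 differed from the other libraries in the genes of the B cell receptor. *Cd79a*, *Cd79b* and *Mzb1* stood 3.48-fold, 3.99-fold and 5.45-fold above BLEO-WT in BLEO-HPS1. *Ms4a1* was 1.88-fold higher and did not pass the fold, *Pax5* was at about the same level, and *Prdm1* was 1.87-fold lower. The plot of levels by library shows these values, which are not corrected for transcript composition. With such a correction, given further on, *Ms4a1* passed the fold together with *Cd79a* and *Cd79b*, while *Pax5*, *Prdm1*, *Xbp1* and *Sdc1* did not pass it.

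**Figure D1:**
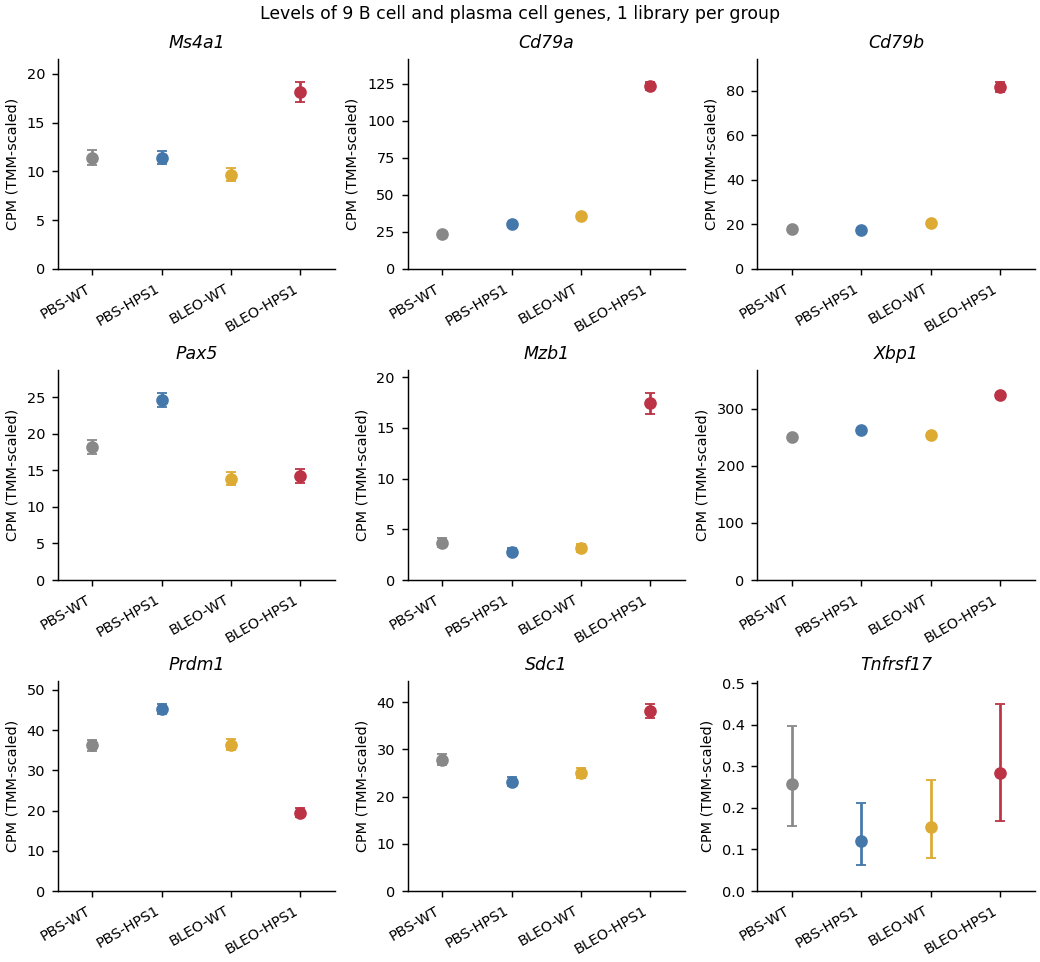
Level of each gene in the 4 libraries, in CPM scaled by TMM factors on axes that start at 0, with exact Poisson 95% intervals (counting error only, 1 library per group). *Cd79a*, *Cd79b* and *Mzb1* stand apart in BLEO-HPS1, *Prdm1* is lowest there, and *Tnfrsf17* is below 1 CPM throughout.

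*Cd79a* and *Cd79b* encode the signalling chains of the B cell receptor. *Cd79a* (ENSMUSG00000003379, GRCm38 chr7:24897381-24902197, plus strand) is the member whose promoter carries a well-known B cell element, a site for the factor EBF1, so its sequence is shown. The stretch lies just before the first annotated exon, at chr7:24897247-24897380 of GRCm38.p6 (RefSeq), on the plus strand, and the capitals mark the EBF1 site.
Cd79a promoter: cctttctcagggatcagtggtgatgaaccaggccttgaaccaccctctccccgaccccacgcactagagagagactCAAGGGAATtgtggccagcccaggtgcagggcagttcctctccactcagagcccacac
The letters CAAGGGAAT were found on either strand in the 250 bases before the start of 74 of 32851 RefSeq promoters (0.225%), and *Cd79a* was the only one of the 6 members with a promoter in the table that held them. The octamer ATTTGCAT was in none of the 6 and in 1.60% of all promoters, and TATAAA in that of *Tnfrsf17* and in 12.4%. These are matches of letters, and binding was not measured.

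Reads of *Cd79a* were 1845 in PBS-WT and 2784 in BLEO-WT, and 2991 in PBS-HPS1 and 7818 in BLEO-HPS1, or 23.7, 35.5, 30.2 and 124 CPM. The BLEO-HPS1 library was highest and the other 3 lay between 23.7 and 35.5 CPM, in an order (BLEO-WT, PBS-HPS1, PBS-WT) whose neighbours differed by more than counting error. The log2 ratio of BLEO-HPS1 was 1.80 (1.74 to 1.86) to BLEO-WT and 2.03 (1.97 to 2.10) to PBS-HPS1. In WT libraries bleomycin went with 0.58 (0.50 to 0.67), so the bleomycin ratio was 1.45 higher in *Hps1*-/- mice on the log2 scale (1.34 to 1.55). Corrected for GC content and length, that difference was 0.80 and no longer past the fold.

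*Cd79b* (ENSMUSG00000040592, chr11:106311341-106314762, minus strand) had 1406, 1604, 1737 and 5164 reads in the same order of libraries, or 18.04, 20.5, 17.5 and 81.7 CPM. BLEO-HPS1 stood far above the rest, and the 2 PBS libraries could not be separated by their counts (log2 ratio -0.04, -0.14 to 0.06). The log2 ratio of BLEO-HPS1 was 2.00 (1.92 to 2.08) to BLEO-WT and 2.22 (2.14 to 2.30) to PBS-HPS1, against 0.18 for BLEO-WT to PBS-WT. The ratio of *Cd79a* to *Cd79b* reads within a library stayed between 1.31 in PBS-WT and 1.74 in BLEO-WT, and was 1.51 in BLEO-HPS1.

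*Ms4a1* (ENSMUSG00000024673, chr19:11249675-11266241, minus strand) encodes CD20, a surface protein of mature B cells. It had 887 reads in PBS-WT and 757 in BLEO-WT, and 1127 in PBS-HPS1 and 1146 in BLEO-HPS1, or 11.4, 9.65, 11.4 and 18.1 CPM. BLEO-HPS1 was again highest, and BLEO-WT was lowest. After correction for GC content and length the log2 ratio to BLEO-WT was 1.42, between those of *Cd79a* and *Cd79b*, and that of BLEO-WT to PBS-WT was 0.22, so BLEO-WT was no longer lowest. The log2 ratio of BLEO-HPS1 was 0.91 (0.78 to 1.04) to BLEO-WT and 0.67 (0.55 to 0.79) to PBS-HPS1, or 0.03 for the latter with total counts, and that of BLEO-WT to PBS-WT was -0.24 (-0.38 to -0.10). Within each library, *Cd79a* had 2.08 reads per *Ms4a1* read in PBS-WT and 3.68 in BLEO-WT, and 2.65 in PBS-HPS1 and 6.82 in BLEO-HPS1, a pair chosen after its values were seen. These are uncorrected reads, and after correction for GC content and length the order turned: the ratio of BLEO-HPS1 to PBS-HPS1 was then 1.07 for *Cd79a* and 1.62 for *Ms4a1*.

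*Pax5* (ENSMUSG00000014030, chr4:44524757-44710487, minus strand) showed no excess in BLEO-HPS1. Its reads numbered 1413, 1087, 2438 and 896, or 18.1 CPM in PBS-WT and 13.9 in BLEO-WT, and 24.6 in PBS-HPS1 and 14.2 in BLEO-HPS1. The PBS-HPS1 library was highest, and the bleomycin libraries could not be separated (log2 ratio 0.03, -0.10 to 0.16). In *Hps1*-/- mice *Pax5* was lower with bleomycin, with a log2 ratio of -0.79 (-0.91 to -0.68). After correction for GC content and length this ratio was -0.26. Exons of *Pax5* overlap 2 genes on the opposite strand, which had at most 39 reads in any library, and whether counting used strand is not given in the sources used here.

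The plasma cell genes were led by *Mzb1* (ENSMUSG00000024353, chr18:35647267-35649367, minus strand). It had 288 reads in PBS-WT and 249 in BLEO-WT, and 274 in PBS-HPS1 and 1101 in BLEO-HPS1, or 3.69, 3.18, 2.77 and 17.4 CPM. BLEO-HPS1 was far above the other 3 libraries, which lay close together, BLEO-WT not separable from either PBS library. The log2 ratio of BLEO-HPS1 was 2.45 (2.26 to 2.66) to BLEO-WT and 2.64 (2.46 to 2.85) to PBS-HPS1. *Mzb1* shares 695 bases of exon with *Spata24* on the same strand, so reads of one could be counted for the other. *Spata24* itself had 130, 160, 95 and 251 reads in these libraries.

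*Xbp1* (ENSMUSG00000020484, chr11:5520659-5525893, plus strand), the secretory transcription factor, had by far the most reads of the 9 genes and was the flattest. Its reads were 19452, 19942, 25924 and 20445, or 249.5 CPM in PBS-WT and 254.3 in BLEO-WT, and 261.8 in PBS-HPS1 and 323.6 in BLEO-HPS1. The other 3 libraries differed by at most 1.05-fold, and BLEO-HPS1 was 1.27-fold above BLEO-WT. With total counts in place of TMM factors its log2 ratio of BLEO-HPS1 to PBS-HPS1 turned from 0.31 to -0.34.

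*Prdm1* (ENSMUSG00000038151, chr10:44437177-44528501, minus strand), which encodes BLIMP-1, went the other way from *Mzb1*. It had 2825 reads in PBS-WT and 2851 in BLEO-WT, and 4478 in PBS-HPS1 and 1228 in BLEO-HPS1, or 36.2, 36.4, 45.2 and 19.4 CPM. BLEO-HPS1 was lowest, PBS-HPS1 highest, and the WT libraries could not be separated. The log2 ratio of BLEO-HPS1 was -1.22 (-1.31 to -1.13) to PBS-HPS1 and -0.90 (-0.996 to -0.81) to BLEO-WT.

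*Sdc1* (ENSMUSG00000020592, chr12:8771323-8793715, plus strand), which encodes syndecan-1 (CD138), had 2167, 1957, 2288 and 2407 reads. These were 27.8 CPM in PBS-WT and 24.96 in BLEO-WT, and 23.1 in PBS-HPS1 and 38.1 in BLEO-HPS1. The BLEO-HPS1 library was highest, with a log2 ratio of 0.61 (0.52 to 0.70) to BLEO-WT and 0.72 (0.64 to 0.80) to PBS-HPS1, below the fold. After correction for GC content and length these ratios were 0.26 and 0.08. The marker is shared with epithelium. The 12 epithelial genes summed to 752.3 CPM in BLEO-WT and 532.7 in BLEO-HPS1, with 6 of 12 ratios positive, and to 1540.9 CPM in PBS-WT and 1142.4 in PBS-HPS1, and their part in *Sdc1* was not tested. *Tnfrsf17* (ENSMUSG00000022496, chr16:11313812-11320074, plus strand), which encodes the survival receptor BCMA, had 20, 12, 12 and 18 reads, or 0.26, 0.15, 0.12 and 0.28 CPM. A difference was not detectable at this depth between BLEO-HPS1 and BLEO-WT (log2 ratio 0.80, -0.24 to 2.08), while the interval of its ratio to PBS-HPS1 left out 0 (1.08, 0.10 to 2.42). Its ratio to *Ms4a1* reads was between 0.0106 and 0.0225 in the 4 libraries with overlapping intervals.

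Per kilobase of exon, *Xbp1* led in every library and *Tnfrsf17* was last. *Cd79a* and *Cd79b* came next to *Xbp1* in each library, at 16.2 and 12.6 CPM per kilobase in PBS-WT and 84.9 and 57.1 in BLEO-HPS1, where *Xbp1* was at 99.6. *Mzb1* moved from rank 6 in PBS-WT and BLEO-WT, at 3.04 and 2.61 CPM per kilobase, to rank 4 in BLEO-HPS1, at 14.3. *Ms4a1* and *Pax5* stayed at or below 2.93 CPM per kilobase in all 4 libraries.

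**Figure D2:**
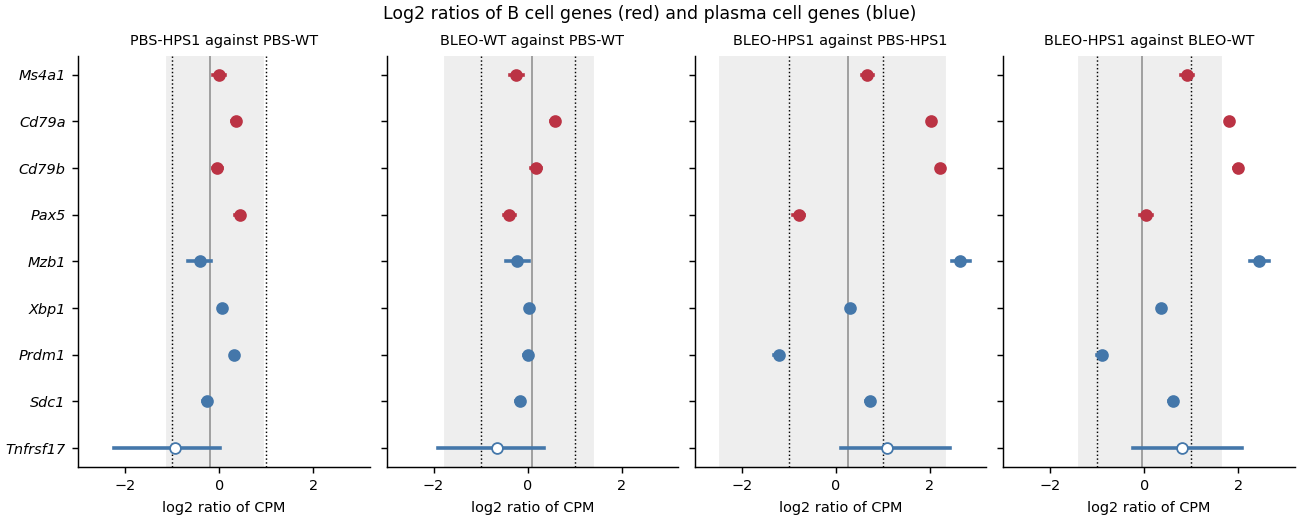
Log2 ratio of CPM of the 9 genes in the 4 comparisons (points, with exact 95% intervals of counting error), B cell genes in red and plasma cell genes in blue; the open circle is *Tnfrsf17*, below 1 CPM. Grey bands hold the central 95% of the 14840 genes compared, grey lines their medians and dotted lines a 2-fold difference. In the 2 comparisons of BLEO-HPS1, *Cd79b* and *Mzb1* lie near or above the upper edge of the band.

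Between the PBS libraries, none of the 8 genes compared was past the fold, where 2.16% of all 14840 genes were higher and 3.11% lower in PBS-HPS1. Between the WT libraries none was past it either, where 5.28% of genes were higher and 8.22% lower with bleomycin. For BLEO-HPS1 against PBS-HPS1, 3 of 8 were higher (*Cd79a*, *Cd79b* and *Mzb1*), with 26.2% of all genes, and 1 was lower (*Prdm1*), with 19.6%. With total counts alone *Pax5* was lower too, at -1.44, with 9.06% of all genes higher and 34.5% lower. For BLEO-HPS1 against BLEO-WT, the same 3 genes were higher, with 6.72% of all genes, and none lower, with 10.3%. With total counts *Prdm1* was lower, at -1.04, with 4.92% of all genes higher and 14.8% lower. The bleomycin ratio differed between genotypes by at least 1 on the log2 scale for 4 of 8 genes. It was greater in *Hps1*-/- mice for *Cd79a*, *Cd79b* and *Mzb1*, as for 16.3% of all genes, and smaller for *Prdm1*, as for 11.2%. After correction for GC content and transcript length, described below, the difference was past 1 for *Ms4a1* (1.40), *Cd79b* (1.41) and *Mzb1* (2.15), with 9.76% of all genes greater and 6.2% smaller, and not for *Cd79a* (0.80) and *Prdm1* (-0.70). The last 3 comparisons share the BLEO-HPS1 library, and so are not independent of each other.

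Ratios to BLEO-HPS1 moved with the base composition and length of the transcript. Over 14813 genes, the log2 ratio to BLEO-WT had a Spearman correlation of 0.537 with the GC content of the longest transcript and of -0.403 with its length, and that to PBS-HPS1 of 0.562 and -0.420. The genes share libraries, so this describes the libraries. Among the members, *Cd79a*, *Cd79b* and *Mzb1* have short transcripts of 1457, 1431 and 904 bases with 54.9%, 54.2% and 54.0% GC. *Ms4a1* has 3075 bases with 40.6% GC, *Prdm1* 5281 bases with 46.3% GC and *Pax5* 8004 bases with 50.6% GC.

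The ratios were then corrected for GC content and length with a loess curve over all genes. In the comparisons with a bleomycin library, *Ms4a1*, *Cd79a* and *Cd79b*, the genes of the B cell surface, came closer together. The width of their log2 ratios went from 1.55 to 0.55 for BLEO-HPS1 against PBS-HPS1, and from 0.82 to 0.39 for BLEO-WT against PBS-WT. Between the PBS libraries it grew, from 0.39 to 0.46. For BLEO-HPS1 against BLEO-WT, *Ms4a1*, *Cd79a* and *Cd79b* had spanned 0.91 to 2.00, a width of 1.09 on the log2 scale. After correction they were at 1.42, 1.28 and 1.504, a width of 0.23. All 3 and *Mzb1*, at 1.89, were then past the fold, with 5.03% of all genes higher and 4.67% lower. *Pax5* moved to 0.37, *Sdc1* to 0.26, *Xbp1* to -0.02 and *Prdm1* to -0.46.

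For BLEO-HPS1 against PBS-HPS1 the same 4 genes were past the fold after correction, with 15.1% of all genes higher and 9.91% lower. *Ms4a1* went from 0.67 to 1.62, *Cd79a* went from 2.03 to 1.07, *Cd79b* from 2.22 to 1.29 and *Mzb1* from 2.64 to 1.65. *Prdm1* went from -1.22 to -0.56 and was no longer past it. The values of *Cd79a*, *Cd79b*, *Ms4a1* and *Mzb1* thus stayed above 1 in both comparisons with the correction, and without it those of *Ms4a1* did not.

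**Figure D3:**
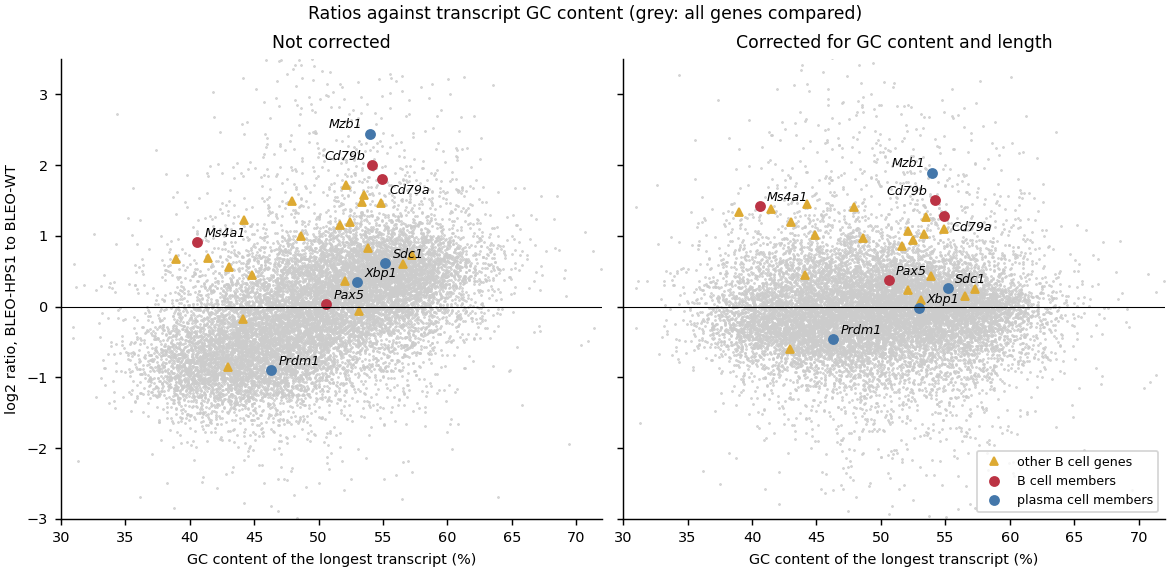
Log2 ratios between the bleomycin libraries, BLEO-HPS1 over BLEO-WT, against transcript GC content (percent), before correction (left) and after correction for GC content and length (right), for all genes compared (grey), the 8 members compared (red and blue) and 20 other B cell genes (yellow); axes are limited to where most genes lie. On the left the grey cloud climbs with GC content, and on the right *Ms4a1*, *Cd79a* and *Cd79b* lie between 1.28 and 1.504.

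A list of 20 other B cell genes lay mostly on the same side. It was also chosen by name with earlier results of these data known, so it is not independent support. For BLEO-HPS1 against BLEO-WT, 17 of 20 had a positive log2 ratio, 9 were past the fold and none was lower, with a median of 0.77 where the median of all genes was -0.04. Of all genes 6.72% were higher past the fold and 10.3% lower. *Spib*, a transcription factor of B cells and plasmacytoid dendritic cells, had 34.8 CPM in BLEO-HPS1 and 12.5 in BLEO-WT.

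Among the genes below the fold were transcription factors, such as *Ebf1*, which sets up the B cell programme (0.56), and *Bcl11a* (0.44). After correction for GC content and length these were at 1.19 and 1.01, the median of the list was 0.99, 19 of 20 genes were positive and 10 were past the fold. With the correction 5.03% of all genes were higher past it. *Cd24a*, which many other cell types also express, had -0.85 before and -0.60 after correction, the only negative value then. For BLEO-WT against PBS-WT the list's median was -0.09, with 1 of 20 past the fold, *Cd72* at 1.14, where 5.28% of all genes were higher. After correction *Cd72* was at 0.85, and *Blk*, a kinase of B cells, was past it downward, at -1.19 (-0.93 before).

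Genes that act downstream of the receptor or feed B cell survival had medians near that of all genes for BLEO-HPS1 against BLEO-WT. Of 16 receptor signalling genes, many of them used by myeloid cells too, none was past the fold upward from BLEO-WT to BLEO-HPS1. Only 1 was lower, *Malt1* at -1.34 (-0.56 after correction), and the median was -0.19. Of all genes 6.72% were higher past the fold there and 10.3% lower. Against PBS-HPS1, 4 of the 16 were higher and 2 lower, where 26.2% and 19.6% of all genes were. For BLEO-WT against PBS-WT, 2 were higher and 1 lower, where 5.28% and 8.22% of all genes were. The kinase *Syk* had 561 CPM in BLEO-WT and 498 in BLEO-HPS1, and *Btk* 57.2 and 39.9 CPM. Of the 4 genes for BAFF, APRIL and their other receptors none was past the fold for BLEO-HPS1 against BLEO-WT, with a median of 0.03. Against PBS-HPS1 their median was 0.91, with 1 of 4 higher past the fold. The median of all genes was 0.25 there, and 26.2% of all genes were higher past it. After correction for GC content and length their median was 0.61, with ratios from -1.21 to 1.87. Of the 4 genes, 2 were then higher past the fold and 1 lower, where 15.1% of all genes were higher and 9.91% lower. *Tnfrsf13c*, which encodes the BAFF receptor of B cells, had 4.31, 3.58, 4.29 and 2.79 CPM in the 4 libraries, lowest in BLEO-HPS1, where *Cd79a* was highest.

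Other plasma cell genes and genes of the secretory machinery also had medians near 0. Of 14 other plasma cell genes compared, 1 was higher past the fold in BLEO-HPS1 than in BLEO-WT, *Derl3*, which takes part in clearing misfolded proteins from the endoplasmic reticulum, at 2.01 against 0.778 CPM, where 6.72% of all genes were higher. *Ell2*, an elongation factor for secreted antibody mRNA, was lower, at 12.9 against 28.6 CPM. After correction neither was past the fold, at 0.73 for *Derl3* and -0.46 for *Ell2*. *Irf4*, a transcription factor of plasma cells and T cells, had 33.7 against 45.3 CPM, and the median of the list was -0.02. Of 21 genes of the secretory machinery and targets of XBP1, none was past the fold, with a median of -0.04. Of all genes 6.72% were higher past it and 10.3% lower.

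**Figure D4:**
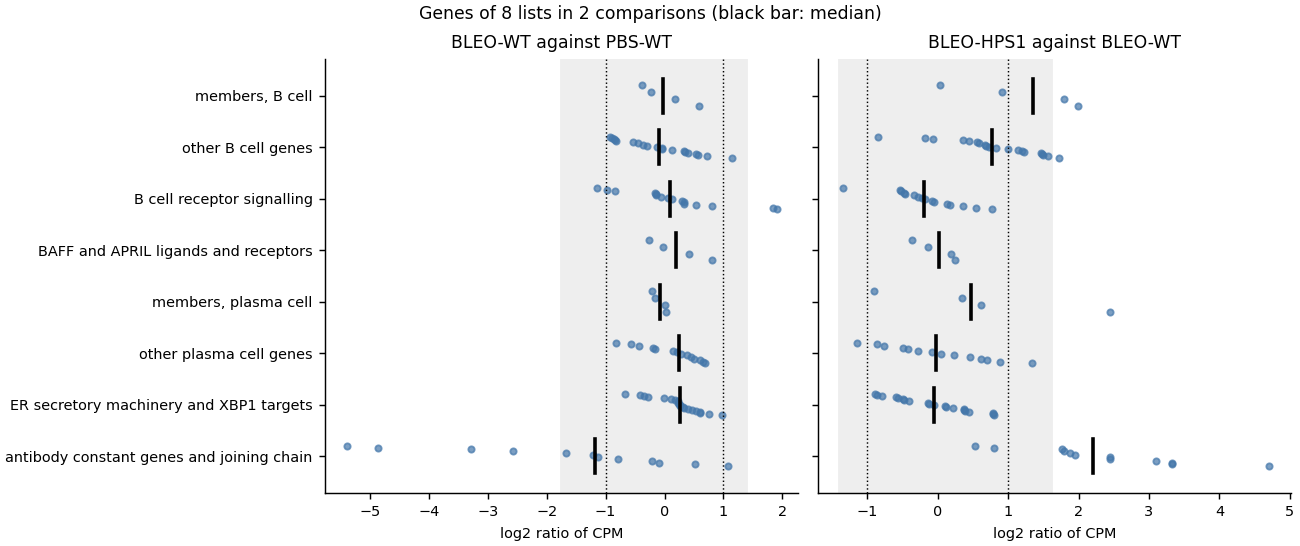
Log2 ratio of CPM of each gene (points) in 8 lists, for BLEO-WT against PBS-WT and BLEO-HPS1 against BLEO-WT, which share the BLEO-WT library; black bars are list medians, grey bands the central 95% of all genes and dotted lines a 2-fold difference. On the right, the antibody genes (median 2.20) and the B cell lists (1.35 and 0.77) lie above 0, while the signalling and secretory lists centre near 0.

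The genes for antibody constant regions and the joining chain had larger ratios than most members. For BLEO-HPS1 against BLEO-WT, 10 of 12 were higher past the fold, where 6.72% of all genes were, with a median of 2.20. For BLEO-WT against PBS-WT, 7 of 12 were lower past it, with a median of -1.17, where the 8 members compared had none past it. Of all genes 8.22% were lower there. *Jchain*, which joins IgA and IgM units, had 6106 reads in PBS-WT and 1028 in BLEO-WT, and 3423 in PBS-HPS1 and 3040 in BLEO-HPS1. *Ighm*, the constant region of IgM, had 573 and 273 CPM in the PBS libraries of WT and *Hps1*-/- mice, 247 in BLEO-WT and 856 in BLEO-HPS1.

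Read ratios of antibody genes to members, not corrected for GC content or length, differed between the libraries. For each *Mzb1* read there were 21.2 (18.8 to 23.9) *Jchain* reads in PBS-WT and 4.13 (3.59 to 4.76) in BLEO-WT, and 12.5 (11.0 to 14.2) in PBS-HPS1 and 2.76 (2.58 to 2.96) in BLEO-HPS1. For each *Cd79a* read there were 10.1, 2.12, 4.999 and 3.33 reads of *Igkc*, the kappa light chain constant region. *Mzb1* had 0.961 (0.884 to 1.04) reads per *Ms4a1* read in BLEO-HPS1, and 0.325, 0.329 and 0.243 in PBS-WT, BLEO-WT and PBS-HPS1. Reads of *Pax5* per *Ms4a1* read, a pair chosen after its values were seen, were 1.59, 1.44, 2.16 and 0.782 in the same order. In corrected log2 ratios *Mzb1* and *Ms4a1* lay closer, at 1.65 and 1.62 for BLEO-HPS1 to PBS-HPS1 and at 1.89 and 1.42 for BLEO-HPS1 to BLEO-WT.

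**Figure D5:**
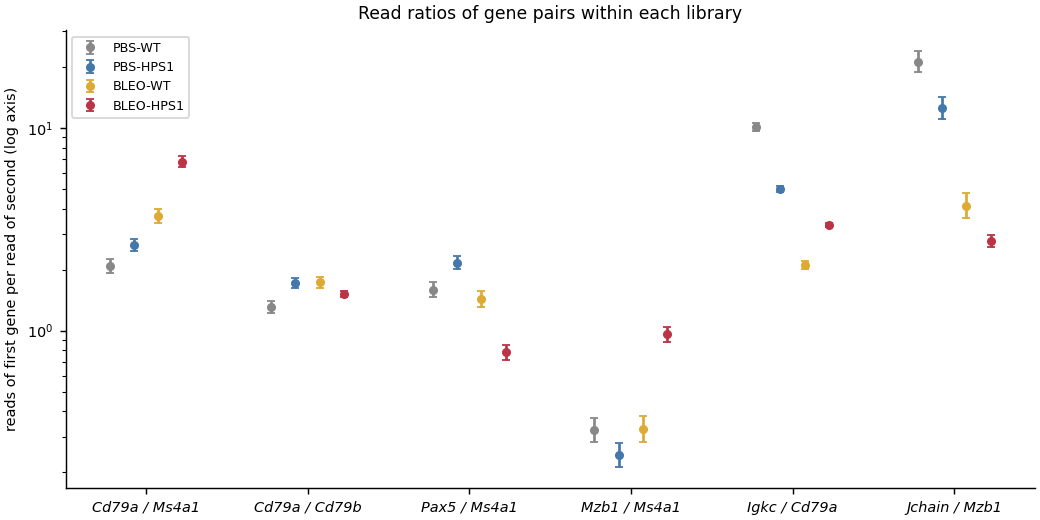
Reads of one gene per read of another in the same library (log axis), with exact 95% intervals, for 6 gene pairs in the 4 libraries. The pair *Cd79a* and *Cd79b* stays between 1.31 and 1.74, *Mzb1* per *Ms4a1* stands at 0.961 in BLEO-HPS1 against 0.243 to 0.329 elsewhere, and *Jchain* per *Mzb1* spans 2.76 to 21.2.

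Markers of other cells moved in the same library. For BLEO-HPS1 against BLEO-WT, 7 of 8 fibroblast genes were past the fold, all higher, where 6.72% of all genes were higher and 10.3% lower. The summed level of the fibroblast genes was 227.3 CPM in PBS-WT and 611.0 in BLEO-WT, and 355.2 in PBS-HPS1 and 2924.3 in BLEO-HPS1. Of 12 T cell genes all had positive log2 ratios, from 0.48 to 1.24, and 4 were past the fold. Of 9 plasmacytoid dendritic cell genes compared, 2 were past it, *Ly6d* and *Spib*, both also expressed in cells of the B lineage, while the defining *Siglech* had 2.38 and 3.61 CPM in the bleomycin libraries. Macrophage genes had a median of -0.09, and 1 of 12 was past the fold, *Mrc1*, at -1.40 (-0.81 after correction, no longer past it). No gene of these lists was at 0 in all libraries, and their part in the values of the members was not tested.

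Genes with the pattern most like a member over the 4 libraries were found by the root mean square difference of log2 CPM after centring each gene. Nearest to *Cd79a* were *Mrc2* (0.0586), *Fxyd1* (0.0602) and *Sparc* (0.0633), with 55 genes within 0.2. Nearest to *Mzb1* were *Pdgfrl* (0.0680), *Bace2* (0.117) and *Fbln7* (0.125), with 10 genes within 0.2. Nearest to *Ms4a1* were *Clip4* (0.0304), *Kcnq1* (0.0334) and *Mypop* (0.0343), with 473 genes within 0.2. None of these 9 genes was on a B cell or plasma cell list.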

How the data were processed

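The authors deposited raw, unscaled counts (reads per Ensembl gene) in 1 table of 4 libraries made from total RNA of sorted and cultured cells. The aligner, counter and genome build are not given in the sources used here. Of 49315 identifiers, 49056 were found in GENCODE M21 (GRCm38), which gave positions, lengths and GC contents. No column went unused. Counts were scaled with TMM factors (edgeR 4.0.16, R 4.3.3) and log2 CPM used a prior count of 2. The 14840 genes that reached 1 CPM anywhere were compared. Ratios have Clopper-Pearson and levels Poisson exact intervals at 95%, and differences of bleomycin ratios have normal approximations. PCR copies were counted as reads, so intervals cover counting error only. The scaling and the fold calls were checked on simulated counts with counting error only. Those counts held no trend with GC content or length, and the loess correction was not checked on them. Loess corrections used a span of 0.3. Promoters were RefSeq (GRCm38.p6), and 6 of 9 members were matched. Members and lists were chosen with earlier results of these data known. Named genes were the members, list genes and the 3 nearest in pattern to *Cd79a*, *Mzb1* and *Ms4a1*. Alternatives were DESeq2 1.42.0 size factors, total counts, TMM without immunoglobulin genes, other prior counts, filters and fold, and the loess correction.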

Additional observations from a re-analysis of the deposited data

Results flagged for a closer look

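For 5 members the ratio of bleomycin to PBS had opposite signs in *Hps1*-/- and WT mice, 1 library in each group, and the difference between the genotypes was not tested. On the log2 scale, *Hps1*-/- minus WT, the difference was 0.91 for *Ms4a1* (0.67 and -0.24), 2.86 for *Mzb1* (2.64 and -0.22), -1.22 for *Prdm1* (-1.22 and 0.00) and 0.88 for *Sdc1* (0.72 and -0.16). For *Tnfrsf17*, with at most 20 reads in a library, it was 1.74 (1.08 and -0.66). The counting intervals of both ratios left out 0 for *Ms4a1* and *Sdc1*, but for *Mzb1*, *Prdm1* and *Tnfrsf17* that of the WT ratio held it. Once corrected for GC content and length, *Ms4a1* in WT mice was at 0.22, so its signs were no longer opposite. Corrected *Sdc1* was at 0.08 in *Hps1*-/- mice and -0.42 in WT mice, a difference of 0.49.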

How the results depend on the processing

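No group has a replicate, so leaving out a library leaves no comparison. No paired analysis was possible because each group is 1 library and the labels give no replicate numbers. With the fold set at a log2 ratio of 2, 1 of 8 members was past it for BLEO-HPS1 against BLEO-WT (3 at a ratio of 1) and 2 for the difference between genotypes (4 at a ratio of 1). The share of all genes past a log2 ratio of 2 was not counted. The central band of all genes, drawn in grey in the plots, ran from -1.40 to 1.62 for BLEO-HPS1 against BLEO-WT. For the difference between genotypes, the same band, not plotted, ran from -1.72 to 1.92. The other counts of members past the fold stayed within 1.5 times under every alternative that was run, but not always for the same genes: the correction for GC content and length added *Ms4a1* and dropped *Prdm1*, and for the difference between genotypes also *Cd79a*. Total counts shifted the median of all genes by 0.24, -0.26, -0.64 and -0.13 in the 4 comparisons (PBS-HPS1 to PBS-WT, BLEO-WT to PBS-WT, BLEO-HPS1 to PBS-HPS1, BLEO-HPS1 to BLEO-WT). The sign of some small ratios of *Xbp1*, *Cd79b*, *Pax5*, *Prdm1* and *Ms4a1* turned with total counts, with the correction or, for *Prdm1* alone, with DESeq2 size factors; the cause was not tested. The largest such ratio was the difference between genotypes for *Pax5*, -0.41 and 0.10 after correction. Depth bears most on *Tnfrsf17*, with 12 to 20 reads.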
